A study of Mus musculus with 12 samples.

Results

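The 6 genes described here encode the C-type natriuretic peptide (CNP) signal of the growth plate: its ligand (*Nppc*), the natriuretic peptide receptors (*Npr1*, *Npr2*, *Npr3*) and both cyclic GMP-dependent protein kinases (*Prkg1*, *Prkg2*). They were taken by their gene symbols, and each had 1 row among the 36186 gene rows of the RNA-Seq table. Levels were given as NRPKM, the RPKM values of the authors (reads per kilobase of transcript and mapped library size) after a further normalization between libraries, so levels of different genes could be compared per length.

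CNP is made in cartilage and binds the receptor encoded by *Npr2*, a membrane guanylyl cyclase that makes cyclic GMP (cGMP) inside the chondrocyte. The cGMP activates protein kinases, of which the type II enzyme encoded by *Prkg2* is known to carry the signal in growth plate chondrocytes, and this pathway promotes long bone growth and opposes FGFR3 signalling through the MAPK cascade. The receptor encoded by *Npr3* lacks a cyclase and removes natriuretic peptides, while the receptor encoded by *Npr1* answers atrial and B-type natriuretic peptides and is best known from blood vessels and kidney. Loss of *Npr2* or *Prkg2* in mice gives short limbs, and loss of *Npr3* gives overgrown bones.

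The libraries came from the forelimb zeugopod (the radius and ulna region) of mouse embryos at E15.5, on a mixed 129/CD-1 strain background. Cells were collected by laser capture microdissection (LCM), with 3 libraries for each of 4 groups: wild type (WT) resting, WT proliferative, WT hypertrophic and *aadd* mutant. The *aadd* embryos were homozygous for frameshift mutations in the first exons of 6 Hox genes (*Hoxa9*, *Hoxa10*, *Hoxa11*, *Hoxd9*, *Hoxd10* and *Hoxd11*). Compartments were not dissected apart in the mutant, whose chondrocytes were captured together in each library. GEO's labels put that sample under the compartment name resting and call the WT hypertrophic compartment hyperproliferative, and the compartment names of the study are used here. The study described the captured tissue as holding some perichondrial cells. Comparisons of *aadd* with a WT compartment therefore set a whole mutant element beside 1 zone, and genotype and the mix of zones cannot be told apart in them.

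One read on 1 kilobase of transcript was worth 0.309 to 0.530 NRPKM. That corresponds to a depth of 1890000 to 3240000 reads per library, an estimate that also carries the authors' scaling between libraries. *Col10a1*, the collagen of hypertrophic cartilage, followed the compartments. It measured 1.86 to 5.79 NRPKM in WT resting, 43.5 to 111 in WT proliferative, 166 to 264 in WT hypertrophic and 3.93 to 4.39 in *aadd*. *Ihh*, which the study listed as higher in the proliferating than in the resting compartment, had a median of 27.0 NRPKM in WT proliferative. Its median was 15.3 in WT hypertrophic, 0.517 in WT resting and 0.693 in *aadd*. The WT proliferative libraries thus already held transcripts of both genes. Transcripts of the 6 mutated Hox genes were still counted in every *aadd* library, as frameshift alleles can be transcribed, and did not check the genotype. Among the WT hypertrophic libraries, replicate 1 stood apart. Its 10 endothelial markers summed to 21.8 NRPKM against 303 and 210 in replicates 2 and 3, its 10 osteoclast markers to 59.3 against 1379 and 1023, and its 10 cartilage matrix markers to 3005 against 677 and 965. In bulk samples like these, fewer cells of a type and less RNA per cell cannot be told apart.

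Of the 6 genes, 3 (*Npr2*, *Prkg1* and *Prkg2*) had 5 NRPKM or more in 3 or more libraries and entered the tests across 10936 genes. A difference was called at an unadjusted *P* up to 0.05 with a fold change (FC) of at least 2 between WT compartments, or 1.5 where *aadd* was compared. In the comparison of all 4 groups, *Npr2* (adjusted *P* = 0.0288, limma F test) and *Prkg2* (adjusted *P* = 0.0745) passed the unadjusted limit and *Prkg1* did not (adjusted *P* = 0.489), beside 31.0% of all genes tested. Between WT proliferative and WT resting 1 of the 3 was called, beside 5.53% of all genes. Between WT hypertrophic and WT resting 1 was called, beside 13.0%. Between WT hypertrophic and WT proliferative none of the 3 was called, beside 9.67%. Between *aadd* and WT resting none was called, beside 6.56%. Between *aadd* and WT proliferative 1 was called, beside 15.8%, and between *aadd* and WT hypertrophic 1, beside 21.9%. *Nppc*, *Npr1* and *Npr3* were under the limit on low values, and the tests given for *Npr1* and *Npr3* come from a fit without that limit.

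**Figure D1:**
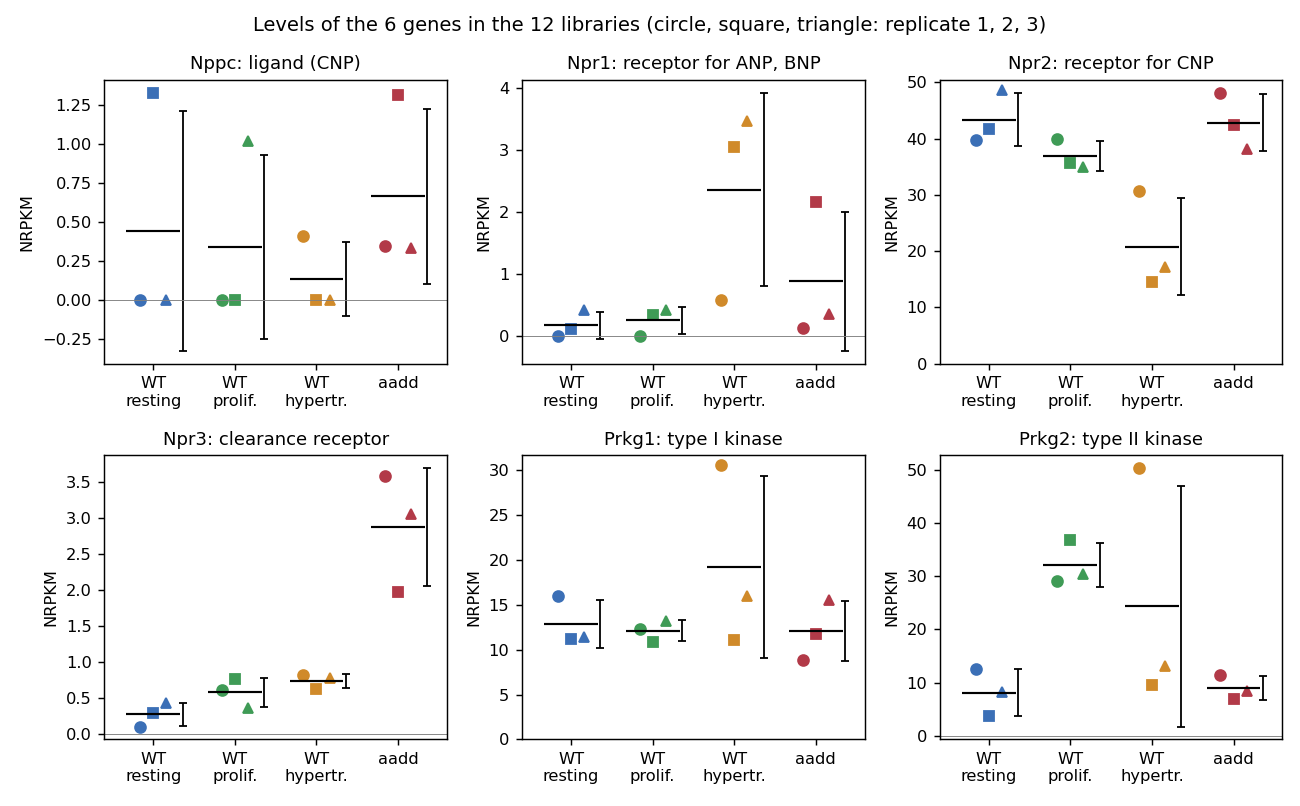
NRPKM (y axis, one linear scale per gene) of the 6 genes in the 3 WT compartments and in aadd (x axis). Symbols are single libraries, lines are means and bars are SD of 3 libraries. Npr2 had the highest mean in all groups but WT hypertrophic, with Nppc at 1.33 NRPKM or less, the 3 aadd libraries above the 9 WT libraries for Npr3, and the WT proliferative libraries above WT resting and aadd for Prkg2.

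The ligand was at the edge of detection. *Nppc* (gene ID 18159, mm10 chr1:86666293-86670573, minus strand) was listed at 0, 1.33 and 0 NRPKM in WT resting replicates 1, 2 and 3. It was at 0, 0 and 1.02 in WT proliferative, at 0.411, 0 and 0 in WT hypertrophic, and at 0.345, 1.31 and 0.335 in *aadd*. Each *aadd* library held a read of it and only 3 of the 9 WT libraries did, and the groups overlapped. On its transcript of 1042 bases these values amount to about 3.32 reads in the WT resting group and about 5 in the *aadd* group, so no fold is given. A count of 0 allows up to 1.52 NRPKM in the library where 1 read was worth the most, so a value of 0 does not show that *Nppc* was absent. No difference between groups was detectable at this depth.

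The receptors differed from one another by level and by pattern. The 250 bases upstream of each receptor's RefSeq start (GRCm38.p6) are shown because these genes of 1 family were high in different groups. Each was searched on both strands for 5 motifs. Of all 32851 RefSeq windows of this length, 14.0% held a RUNX site, spelled TGTGGT. A GC box, spelled GGGCGG, was in 32.7% of those windows. A TATA box, spelled TATAAA, was found in 12.4% of the same set. A posterior Hox site, spelled TTTATGG, was found in 2.43% of the set. A cAMP response element, spelled TGACGTCA, was found in 1.55% of all. Capitals mark the matches.
Npr1 upstream, chr3:90465867-90466116, minus strand: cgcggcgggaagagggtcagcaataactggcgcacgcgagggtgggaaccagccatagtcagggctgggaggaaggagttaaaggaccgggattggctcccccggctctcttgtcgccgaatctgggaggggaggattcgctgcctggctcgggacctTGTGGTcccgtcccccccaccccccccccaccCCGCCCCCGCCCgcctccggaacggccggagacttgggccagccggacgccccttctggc
Npr2 upstream, chr4:43631685-43631934, plus strand: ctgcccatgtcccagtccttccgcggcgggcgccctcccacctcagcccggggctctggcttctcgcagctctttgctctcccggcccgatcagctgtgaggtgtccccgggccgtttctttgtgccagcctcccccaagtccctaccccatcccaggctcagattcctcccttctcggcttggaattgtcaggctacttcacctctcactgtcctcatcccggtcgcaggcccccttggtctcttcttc
Npr3 upstream, chr15:11907372-11907621, minus strand: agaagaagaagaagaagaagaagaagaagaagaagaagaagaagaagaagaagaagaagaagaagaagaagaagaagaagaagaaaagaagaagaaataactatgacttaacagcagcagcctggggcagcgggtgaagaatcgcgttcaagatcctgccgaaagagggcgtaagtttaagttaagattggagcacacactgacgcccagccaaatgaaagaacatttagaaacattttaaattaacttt
The *Npr1* window held a RUNX match and a pair of adjoining GC boxes, read on the reverse strand, and the *Npr2* and *Npr3* windows held none of the 5 motifs. A match of letters is a description of sequence only.

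*Npr2*, the signalling receptor for CNP (gene ID 230103, chr4:43631935-43651240, plus strand), was the most abundant of the 6 genes in 3 of the 4 groups by mean NRPKM. It measured 39.8, 41.7 and 48.6 NRPKM in WT resting and 39.9, 35.7 and 34.9 in WT proliferative. It measured 30.7, 14.6 and 17.1 in WT hypertrophic and 48.1, 42.3 and 38.1 in *aadd*. The hypertrophic libraries were the lowest 3 of the 12, with no overlap with any other group, and the other groups overlapped. *Npr2* was 2.19-fold lower in WT hypertrophic than in WT resting (log2 FC -1.13, SE 0.30, adjusted *P* = 0.0807, limma). The 3 hypertrophic libraries also sat below the 3 proliferative ones (log2 FC -0.90, SE 0.30, adjusted *P* = 0.210), short of the FC limit, and genes without overlap in that direction made up 10.9% of all genes tested there, 17.8% of them between WT hypertrophic and WT resting, and 17.0% in the opposite direction between *aadd* and WT hypertrophic. Between WT proliferative and WT resting the log2 difference was -0.23, with a 95% interval of -0.62 to 0.16.

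In *aadd* the *Npr2* values overlapped those of WT resting and of WT proliferative. The log2 difference from WT resting was -0.02 (95% interval -0.42 to 0.39) and from WT proliferative 0.21 (-0.20 to 0.63). Against WT hypertrophic *Npr2* was 2.16-fold higher in *aadd* (log2 FC 1.11, SE 0.31, adjusted *P* = 0.0819). The call between WT hypertrophic and WT resting was lost without hypertrophic replicate 2 (log2 FC -0.91). Without hypertrophic replicate 1, the library that stood apart, the difference from WT proliferative passed both limits at a log2 FC of -1.21. The hypertrophic libraries with the lowest *Npr2* were replicates 2 and 3, those with the lower cartilage matrix sums of 677 and 965 NRPKM and the higher osteoclast and endothelial sums. The part of these other cells in the lower *Npr2* level was not tested.

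*Npr3*, the clearance receptor (gene ID 18162, chr15:11839897-11907287, minus strand), was scarce in every WT compartment and higher in *aadd*. It measured 0.0999, 0.282 and 0.424 NRPKM in WT resting and 0.602, 0.766 and 0.359 in WT proliferative. It measured 0.812, 0.627 and 0.773 in WT hypertrophic and 3.58, 1.97 and 3.07 in *aadd*. Every *aadd* library exceeded all 9 WT libraries. With no limit on low values, genes above a WT group without overlap made up 6.76% of all genes in *aadd* versus WT resting, 10.5% versus WT proliferative and 12% versus WT hypertrophic. On the longest transcript of 6892 bases these levels correspond to about 2.03 to 7.47 reads in a WT resting library, at most 15.9 in any WT library, and 29.9 to 68.8 in an *aadd* library.

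By group means *Npr3* was 10.7-fold higher in *aadd* than in WT resting, 5.0-fold higher than in WT proliferative and 3.90-fold higher than in WT hypertrophic. In the fit without the limit on low values the log2 FC on log2(NRPKM + 0.1) was 3.08 against WT resting (SE 0.44, adjusted *P* = 0.148), where 5.82% of 22335 genes were called. It was 2.15 against WT proliferative (SE 0.37, adjusted *P* = 0.108, beside 11.2% called) and 1.80 against WT hypertrophic (SE 0.31, adjusted *P* = 0.0603, beside 15.3% called). These comparisons share the *aadd* libraries. The call held in each of the 12 alternatives run on each comparison, leaving out single libraries included. Among WT compartments, *Npr3* was higher in WT hypertrophic than in WT resting (log2 FC 1.29, SE 0.41, adjusted *P* = 0.209, beside 12.5% called). That call rests on 2.03 to 7.47 reads per resting library and was lost without resting replicate 1, hypertrophic replicate 1 or hypertrophic replicate 3 (log2 FC 0.90, 1.22 and 1.25), with a pseudocount of 1 (0.46), with quantile normalization (1.11) and with a variance trend.

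A second row lay over the start of *Npr3*, and it was looked at after its values were seen. *Gm5144* (chr15:11906525-11907390) is annotated by GENCODE as a long noncoding RNA on the plus strand that shares a bidirectional promoter with *Npr3*. It was listed at 0 in 8 of the 9 WT libraries and at 0.0291 NRPKM in the other one, WT proliferative replicate 1. In *aadd* it measured 0.829, 0.909 and 2.17 NRPKM, about 2.18, 1.89 and 5.88 reads, so the *aadd* libraries were again the highest 3 of the 12. Its GENCODE M21 model reaches beyond the deposited coordinates. Of the 946 exon bases of that model, 321 lie in exons of shorter *Npr3* transcripts and 0 in exons of the longest, and without strand the reads of both genes over shared bases cannot be told apart. The sum of 10 tendon and joint markers was also higher in *aadd*, though among WT compartments this sum ran in the opposite order to *Npr3*. The sum was 298, 276 and 296 NRPKM in *aadd* against 147 to 177 in WT resting, 54.9 to 75.5 in WT proliferative and 36.6 to 63.4 in WT hypertrophic. In each *aadd* library 5 of the 10 exceeded every WT resting library, beside 6.76% of all genes with no limit on low values. Of this list, the study had reported *Osr1*, *Gdf5* and *Dcx* as raised in the mutant, and *Osr2* and *Erg* as not elevated. That report came from these same libraries, so the count of 5 is a description. The part of joint or tendon cells in the *Npr3* level was not tested.

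*Npr1*, the receptor for atrial and B-type natriuretic peptides (gene ID 18160, chr3:90450592-90465866, minus strand), was at 0.418 NRPKM or less in every WT resting and proliferative library and higher in WT hypertrophic. It measured 0, 0.102 and 0.418 NRPKM in WT resting and 0, 0.334 and 0.417 in WT proliferative. It measured 0.573, 3.05 and 3.47 in WT hypertrophic and 0.120, 2.17 and 0.349 in *aadd*. Of the 12 libraries, hypertrophic replicates 2 and 3 and *aadd* replicate 2 were above 2 NRPKM, and each hypertrophic library exceeded each resting and proliferative one, as in 11.3% and 9.48% of all genes. In the fit without the limit on low values, *Npr1* was higher in WT hypertrophic than in WT resting (log2 FC 3.17, SE 0.89, adjusted *P* = 0.173) and than in WT proliferative (log2 FC 2.80, SE 0.93, adjusted *P* = 0.367, beside 9.42% called). The *aadd* group overlapped all WT compartments. The WT resting group held about 5.34 reads of *Npr1* in all. The call against WT resting was lost without resting replicate 1 or 2 or hypertrophic replicate 2 (log2 FC 2.60, 3.11 and 2.82), and that against WT proliferative without proliferative replicate 1 or 2 or hypertrophic replicate 2 or 3 (2.05, 3.11, 2.46 and 2.37).

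The libraries with the highest *Npr1* were the 3 with the highest sums of the 10 endothelial markers. Those sums were 21.8, 303 and 210 NRPKM in WT hypertrophic and 10.5, 38.9 and 5.81 in *aadd*, and they reached at most 12.1 in the resting and 15.2 in the proliferative libraries. The sums of 9 macrophage markers were also highest in those 3 libraries, at 23.4, 284 and 230 in WT hypertrophic and 14.9, 44.1 and 12.9 in *aadd*. The part of endothelial or macrophage cells in the *Npr1* level was not tested.

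**Figure D2:**
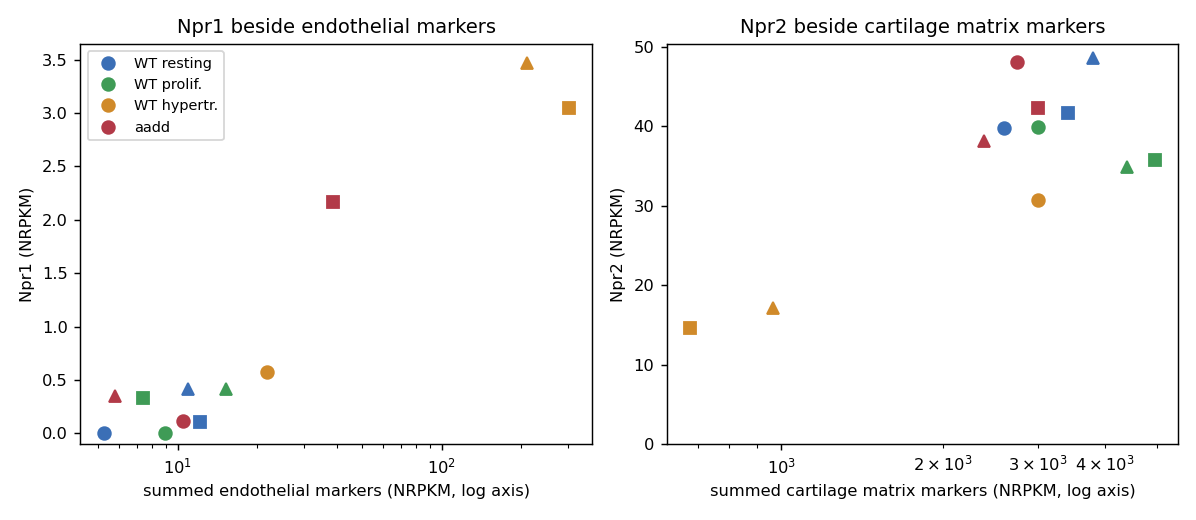
NRPKM of Npr1 against the sum of 10 endothelial markers (left) and of Npr2 against the sum of 10 cartilage matrix markers (right) in the 12 libraries, with marker sums on log axes. Colours are groups and symbols are replicates 1 (circle), 2 (square) and 3 (triangle). WT hypertrophic replicates 2 and 3 lie apart from the rest in both plots, with aadd replicate 2 next in Npr1 at 2.17 NRPKM.

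The kinases also differed in pattern. *Prkg1*, the type I kinase best known from smooth muscle (gene ID 19091, chr19:30564487-31765033, minus strand), measured 16.0, 11.2 and 11.4 NRPKM in WT resting and 12.3, 10.9 and 13.2 in WT proliferative. It measured 30.6, 11.1 and 16.0 in WT hypertrophic and 8.87, 11.7 and 15.6 in *aadd*. All 4 groups overlapped and only hypertrophic replicate 1 stood out. The log2 difference was -0.07 between WT proliferative and WT resting (95% interval -0.55 to 0.41), 0.47 between WT hypertrophic and WT resting (-0.47 to 1.41) and -0.11 between *aadd* and WT resting (-0.72 to 0.50). The 10 smooth muscle and pericyte markers summed to 122 to 166 NRPKM in WT resting, 86.7 to 121 in WT proliferative, 83.4 to 178 in WT hypertrophic and 120 to 153 in *aadd*, with hypertrophic replicate 1 the lowest. The rows *Cstf2t* (10.6 to 27.4 NRPKM over the 12 libraries), *Gm6642* and *8430431K14Rik* lie within the long *Prkg1* gene, and *Gm16048* and *Gm12473* are annotated antisense to *Npr1* and *Npr2*. How reads over shared bases were divided is not stated.

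*Prkg2*, the type II kinase of growth plate chondrocytes (gene ID 19092, chr5:98929773-99037079, minus strand), was highest in the proliferative compartment by mean and low in *aadd*. It measured 12.5, 3.64 and 8.19 NRPKM in WT resting and 29.0, 36.8 and 30.4 in WT proliferative. It measured 50.2, 9.47 and 13.2 in WT hypertrophic and 11.4, 6.98 and 8.47 in *aadd*. Every proliferative library lay above every resting and every *aadd* library, while the hypertrophic libraries spread from the resting range to the highest value of the 12. *Prkg2* was 4.37-fold higher in WT proliferative than in WT resting (log2 FC 2.13, SE 0.43, adjusted *P* = 0.104, limma), and genes called higher made up 2.56% of all genes tested and genes higher without overlap 9.83%.

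In *aadd*, *Prkg2* was 3.61-fold lower than in WT proliferative (log2 FC -1.85, SE 0.23, adjusted *P* = 0.0126), where genes called lower made up 6.02% and genes lower without overlap 10.2%. The log2 difference between *aadd* and WT resting was 0.28 (95% interval -0.77 to 1.32), and the libraries overlapped. These comparisons share libraries, since WT proliferative enters both calls. Both calls held in each of the 14 alternatives run, 6 of which left out a library. The log2 difference was -0.79 between WT hypertrophic and WT proliferative (95% interval -2.27 to 0.70) and 1.34 between WT hypertrophic and WT resting (-0.41 to 3.09). Without hypertrophic replicate 1 the first became a call at -1.51. Between *aadd* and WT hypertrophic it was -1.07 (-2.54 to 0.41), and a call at -1.54 without hypertrophic replicate 2.

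**Figure D3:**
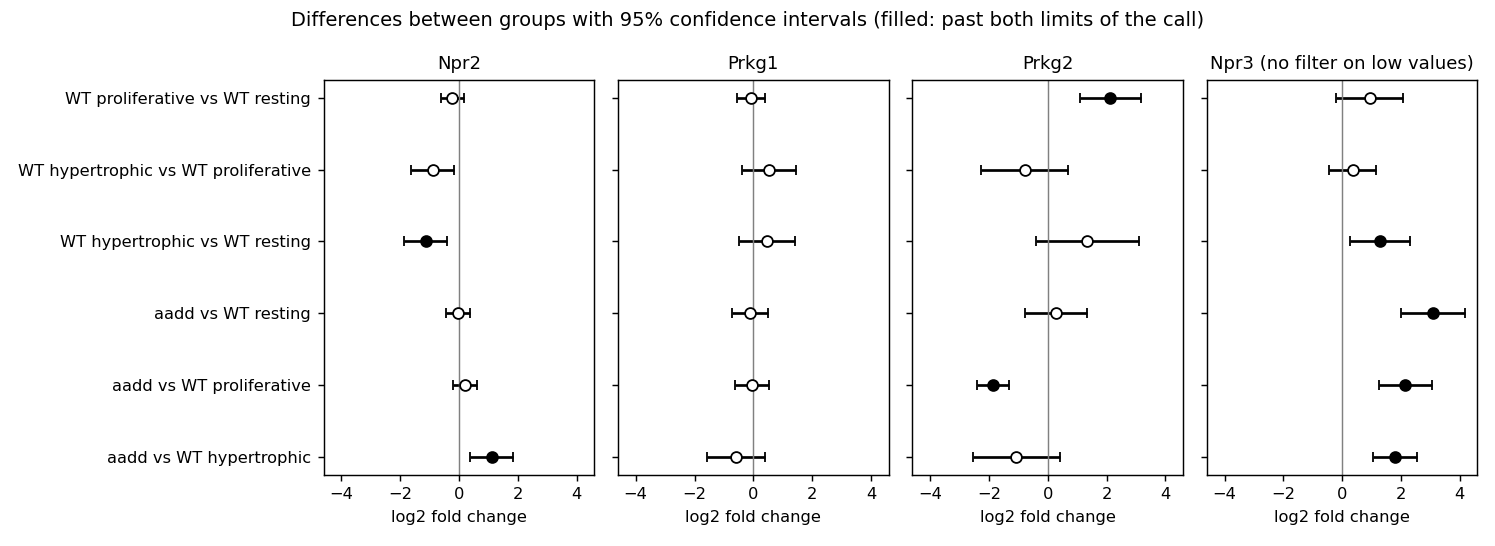
Log2 FC (x axis) of Npr2, Prkg1, Prkg2 and Npr3 in the 6 comparisons of groups (y axis). Points are limma estimates on log2(NRPKM + 0.1), bars are 95% confidence intervals, and filled points passed the limits on P and FC. Npr3 was filled in all 3 comparisons of aadd, from 1.80 to 3.08, and Prkg1 was open in all 6.

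The ratio of a pair of genes within a library, taken without a pseudocount, does not depend on a scaling factor of that library. The ratio of *Npr3* to *Npr2*, clearance to signalling receptor, was 0.251%, 0.677% and 0.871% in WT resting and 1.51%, 2.14% and 1.03% in WT proliferative. It was 2.65%, 4.31% and 4.51% in WT hypertrophic and 7.45%, 4.67% and 8.05% in *aadd*. The *aadd* libraries were highest, with replicate 2 close to hypertrophic replicates 2 and 3. The log2 ratio, with 0.1 NRPKM added to both genes, was 3.10 higher in *aadd* than in WT resting (-3.89 ± 0.41 against -6.98 ± 0.58, SD of 3 libraries each), 1.93 higher than in WT proliferative and 0.69 higher than in WT hypertrophic. In an exact two-sided permutation test *P* was 0.1 for the first pair of comparisons, the smallest that 3 against 3 libraries allow, and 0.3 against WT hypertrophic, where the groups overlapped on that scale. Over the 12 comparisons of ratios the adjusted *P* was 0.133 for those at the smallest *P*.

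The ratio of *Prkg2* to *Prkg1*, type II to type I kinase, was 0.785, 0.324 and 0.718 in WT resting and 2.36, 3.38 and 2.31 in WT proliferative. It was 1.64, 0.853 and 0.823 in WT hypertrophic and 1.28, 0.595 and 0.544 in *aadd*. Only in WT proliferative did the NRPKM of *Prkg2* exceed that of *Prkg1* by over 2-fold in each library. The log2 ratio was 2.20 higher in WT proliferative than in WT resting and 1.81 lower in *aadd* than in WT proliferative (exact permutation *P* = 0.1, adjusted *P* = 0.133 for both), with no overlap of libraries. In hypertrophic replicate 1, where both kinases were high, the ratio of 1.64 was still above those of replicates 2 and 3. *aadd* and WT resting overlapped, with a difference of 0.39 (exact permutation *P* = 0.6).

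**Figure D4:**
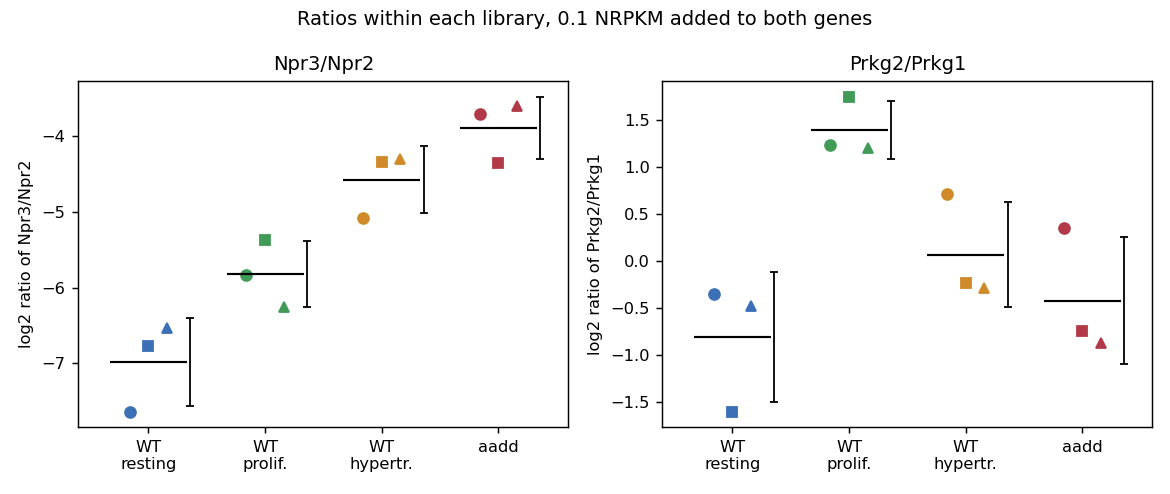
Log2 ratio of Npr3 to Npr2 (left) and of Prkg2 to Prkg1 (right) in each library (y axis), by group (x axis). Symbols are replicates 1 to 3, lines are means and bars are SD. The group means of the Npr3 to Npr2 ratio ran from -6.98 in WT resting to -3.89 in aadd, and the Prkg2 to Prkg1 ratio peaked at 1.39 in WT proliferative.

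Over the 12 libraries, the genes whose log2 levels were most like those of *Npr2* were *Fgfrl1*, a decoy-type FGF receptor (Pearson *r* = 0.987), *Mir493* (0.983) and *Rgma* (0.983). *Fgfrl1* measured 83.2 to 97.0 NRPKM in WT resting, and 49.0, 24.1 and 26.0 in WT hypertrophic. *Mir493* was listed at 8.67, 0 and 0 NRPKM in WT hypertrophic, so its *r* includes values at the floor. For *Prkg1* they were *Atxn2* (0.853), *Srgap1* (0.825) and *Bmp2* (0.811), all at their highest in hypertrophic replicate 1. For *Prkg2* they were *Klhl13* (0.941), *Loxl2* (0.935) and *Corin* (0.912). *Npr2* and *Prkg2*, which act in sequence, had an *r* of -0.10 with each other and a rank correlation (Spearman rho) of -0.55. These are descriptions over 12 libraries that share depth and dissection.

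Other genes of natriuretic peptide and cGMP signalling were taken from 4 lists with 41 rows in all, of which 24 entered the tests. Of these 24, 5 were called higher and 1 lower in WT proliferative than in WT resting, 6 higher and 2 lower in WT hypertrophic than in WT resting, and 4 higher and 3 lower in WT hypertrophic than in WT proliferative. Between *aadd* and WT resting 3 were higher and 1 lower. Between *aadd* and WT proliferative 1 was higher and 5 lower, with a median log2 FC of -0.07, beside 15.8% of all genes called. Between *aadd* and WT hypertrophic 4 were higher and 8 lower, with a median of -0.63, beside 21.9%. Of all genes tested, 2.56% and 2.97%, 5.84% and 7.2%, 5.32% and 4.34%, and 3.78% and 2.78% were called higher and lower in the first 4 of these comparisons, in the order given. The median log2 FC of the 24 was 0.10, 0.55, 0.28 and 0.13 in those 4, against -0.06, -0.02, 0.04 and 0.01 for all genes tested. *Ostn*, *Corin* and *Gucy1a3* entered the tests only through proliferative or hypertrophic libraries, and *Gucy1a2* mainly through *aadd* ones. *Pde5a* and *Pde9a* did so mainly through hypertrophic ones. The counts and medians of the 24 are therefore a description.

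Among ligands and processing enzymes, 3 of the 4 genes tested were called higher than in WT resting both in WT proliferative, beside 2.56% of all genes, and in WT hypertrophic, beside 5.84%. Of these 3, *Ostn* and *Corin* entered the tests only through libraries of those compartments, so the count is a description. *Ostn* encodes osteocrin, a secreted peptide that occupies the clearance receptor. It was listed at 0, 0 and 0 NRPKM in WT resting, 4.33, 0.825 and 1.26 in WT proliferative, 26.6, 8.88 and 17.1 in WT hypertrophic, and 0, 0.359 and 0 in *aadd*. The proliferative and hypertrophic libraries all lay above the resting and *aadd* ones. Against 3 reads per library, the hypertrophic level of *Ostn* exceeded the resting one by at least 21.8-fold and the *aadd* one by at least 21.4-fold. Its call in WT proliferative was lost with a variance trend. The proliferative libraries held about 16.1, 2.24 and 3.39 reads, so no fold is given for them.

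*Corin*, a protease that activates atrial natriuretic peptide, measured 0.328, 0.270 and 0.155 NRPKM in WT resting and 3.08, 5.77 and 5.54 in WT proliferative. It measured 15.55, 0.952 and 1.18 in WT hypertrophic and 0.856, 0.705 and 0.416 in *aadd*. Like *Prkg2*, it was highest in hypertrophic replicate 1 and then in the proliferative libraries. *Corin* was 13.8-fold higher in WT proliferative than in WT resting (log2 FC 3.78, SE 0.32, adjusted *P* = 0.0122) and 6.42-fold lower in *aadd* than in WT proliferative (log2 FC -2.68, SE 0.33, adjusted *P* = 0.0127). It entered the tests through proliferative replicates 2 and 3 and hypertrophic replicate 1, and the first of these calls held with no limit on low values. It was called higher in WT hypertrophic than in WT resting (log2 FC 3.01, SE 1.02, adjusted *P* = 0.129), a call lost without resting replicate 1, 2 or 3 (3.17, 3.06 and 2.79). It was called higher in *aadd* than in WT resting (log2 FC 1.10, SE 0.30, adjusted *P* = 0.319), a call lost with a pseudocount of 1 (0.40), with quantile normalization (0.72), in 1 fit of all 12 libraries and with a variance trend.

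*Mme* encodes neprilysin, a surface peptidase that degrades natriuretic peptides. It measured 7.40, 6.39 and 3.18 NRPKM in WT resting, 44.7, 7.71 and 19.6 in WT proliferative, 50.6, 48.4 and 38.6 in WT hypertrophic and 10.8, 18.2 and 19.4 in *aadd*. All hypertrophic and all *aadd* libraries lay above the resting ones. *Mme* was called higher than in WT resting in WT hypertrophic (log2 FC 3.07, SE 0.34, adjusted *P* = 0.00745), in *aadd* (log2 FC 1.53, SE 0.37, adjusted *P* = 0.265) and in WT proliferative (log2 FC 1.81, SE 0.65, adjusted *P* = 0.254). The last call was lost without resting replicate 2 or 3 or proliferative replicate 1 or 3 (1.94, 1.45, 1.19 and 1.79). The other 3 rows of this list had no call. *Nppa* and *Nppb*, which encode the atrial and B-type peptides that bind *Npr1*, stayed at 1.76 NRPKM or less in all 12 libraries. *Furin*, a proprotein convertase that cuts pro-CNP, measured 13.4 to 27.9 NRPKM.

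Of the other guanylyl cyclases and nitric oxide synthases, 2 of 12 rows entered the tests. *Gucy1a3*, a subunit of the soluble cyclase that answers nitric oxide, measured 0.157, 0.648 and 0.788 NRPKM in WT resting, 2.49, 0.851 and 6.73 in WT proliferative, 12.5, 30.7 and 36.9 in WT hypertrophic, and 0.278, 0.634 and 0.227 in *aadd*. The hypertrophic libraries lay above all others. It was higher in WT hypertrophic than in WT resting (log2 FC 5.45, SE 0.60, adjusted *P* = 0.00745) and than in WT proliferative (log2 FC 3.25, SE 0.78, adjusted *P* = 0.153). It entered the tests through the 3 hypertrophic libraries and 1 proliferative library, and these calls held with no limit on low values. It was higher in WT proliferative than in WT resting (log2 FC 2.21, SE 0.79, adjusted *P* = 0.251), a call lost without resting replicate 1 or proliferative replicate 1 or 3 (1.65, 2.20 and 1.5). *Gucy1a2*, another subunit of that cyclase, went the other way, with 3.59 to 5.16 NRPKM in WT resting, 1.28 to 2.82 in WT proliferative, 1.78 to 2.86 in WT hypertrophic and 5.99 to 7.94 in *aadd*. It was lower in WT proliferative than in WT resting (log2 FC -1.09, SE 0.31, adjusted *P* = 0.190), a call lost without resting replicate 1 or proliferative replicate 2 (-0.98 and -0.77). It was higher in *aadd* than in WT resting (log2 FC 0.59, SE 0.20, adjusted *P* = 0.428), a call lost without resting replicate 2 or *aadd* replicate 3 (0.44 and 0.46) and in 6 other settings, such as a pseudocount of 1 (0.50). It was also higher in *aadd* than in WT proliferative (log2 FC 1.67, SE 0.30, adjusted *P* = 0.0406). It entered the tests through the 3 *aadd* libraries and 1 resting library, so its calls as higher in *aadd* are a description.

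Of the list of cGMP phosphodiesterase genes, 7 of 11 rows entered the tests. None of these was called between WT proliferative and WT resting, beside 5.53% of all genes. *Pde3a*, which cGMP inhibits, measured 20.9 to 38.2 NRPKM in WT resting, 17.8 to 23 in WT proliferative, 5.84 to 10.4 in WT hypertrophic and 14.0 to 19.6 in *aadd*. It was lower in WT hypertrophic than in WT resting (log2 FC -1.72, SE 0.32, adjusted *P* = 0.0339) and than in WT proliferative (log2 FC -1.36, SE 0.27, adjusted *P* = 0.123). It was called lower in *aadd* than in WT resting (log2 FC -0.65, SE 0.27, adjusted *P* = 0.509), a call lost without the limit on low values and in 5 of the 6 fits that left out a library (-0.40 to -0.74), and kept without resting replicate 3. The cGMP-specific *Pde5a* and *Pde9a* were called higher in WT hypertrophic than in WT proliferative (log2 FC 1.13 and 2.07, adjusted *P* = 0.183 and 0.153), *Pde5a* not without hypertrophic replicate 2 (0.79). *Pde9a* (log2 FC 1.2, adjusted *P* = 0.130) and *Pde1a* (log2 FC 1.12, adjusted *P* = 0.101) were called higher in WT hypertrophic than in WT resting. Both were lost without resting replicate 3 (0.79 and 0.95) or hypertrophic replicate 3 (1.2 and 0.79), and *Pde9a* also without hypertrophic replicate 2 (0.99). *Pde5a* entered the tests through hypertrophic replicates 2 and 3 and *aadd* replicate 2. *Pde9a* entered them through all hypertrophic libraries, resting replicate 1 and *aadd* replicate 3. The calls of *Pde5a* and *Pde9a* as higher in WT hypertrophic are therefore a description.

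Of the kinase targets and the FGFR3 to MAPK branch that CNP opposes, 11 of 12 rows entered the tests. *Fgfr3*, the receptor that restrains bone growth, measured 58.8 to 60.6 NRPKM in WT resting, 78.5, 116 and 82.7 in WT proliferative, 63.7, 17.4 and 18.5 in WT hypertrophic, and 37.3 to 48.7 in *aadd*. Its proliferative libraries were the highest 3 of the 12. It was lower in WT hypertrophic than in WT proliferative (log2 FC -1.73, SE 0.53, adjusted *P* = 0.188), a call lost without proliferative replicate 2 or hypertrophic replicate 2 or 3 (-1.55, -1.40 and -1.45). It was also lower in *aadd* than in WT proliferative (log2 FC -1.04, SE 0.22, adjusted *P* = 0.0626). *Sox9*, the cartilage transcription factor whose product the type II kinase restrains, measured 141 to 186 NRPKM in the 9 libraries of WT resting, WT proliferative and *aadd*, and 143, 12.9 and 17.6 in WT hypertrophic. It was called lower in WT hypertrophic than in WT resting and WT proliferative (log2 FC -2.35 and -2.42, adjusted *P* = 0.156 and 0.230). Each call was lost in 5 of 6 fits that left out a library, with values of -1.70 to -2.38 and -1.77 to -2.45, and kept without hypertrophic replicate 1. *Kcnma1*, a potassium channel that the kinases phosphorylate, was higher in WT proliferative than in WT resting (16.9 to 22.2 against 5.43 to 14.0 NRPKM, log2 FC 1.23, SE 0.36, adjusted *P* = 0.192), a call lost without resting replicate 1 (0.95). It was lower in *aadd*, at 1.81 to 6.89 NRPKM, than in WT proliferative (log2 FC -2.39, SE 0.45, adjusted *P* = 0.0439).

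**Figure D5:**
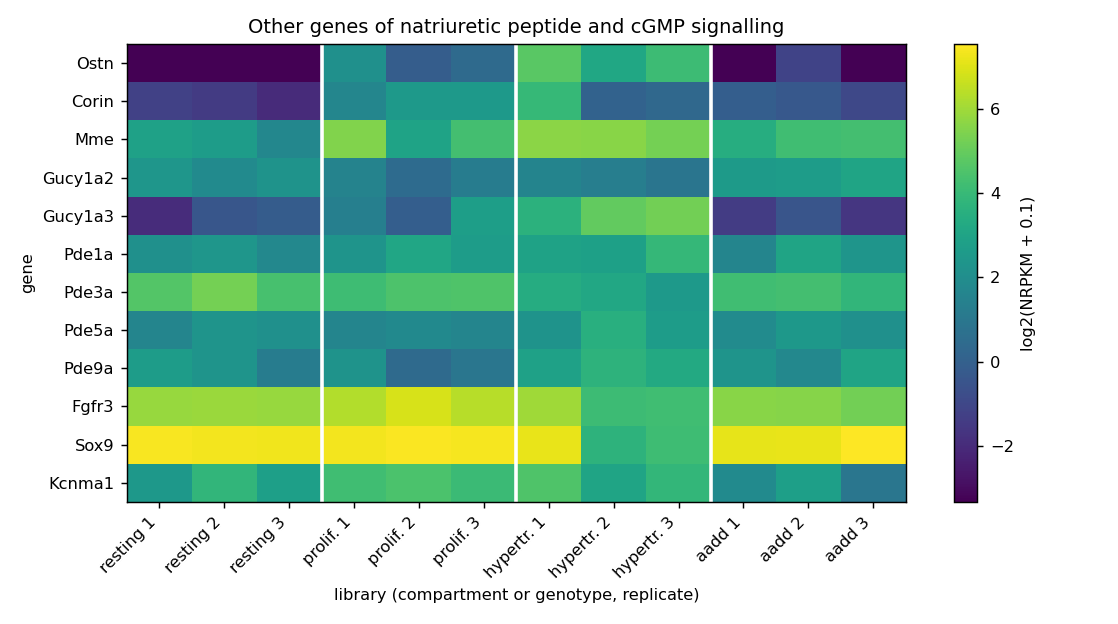
Level of 12 other genes of natriuretic peptide and cGMP signalling (rows) in the 12 libraries (columns), coloured by log2(NRPKM + 0.1). Ostn and Gucy1a3 were lit in the 3 WT hypertrophic libraries and dark in WT resting and aadd, and hypertrophic replicate 1 kept Sox9, Fgfr3 and Corin at levels of 143, 63.7 and 15.55 NRPKM.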

How the data were processed

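RNA-Seq was performed by the authors on 12 LCM samples, with 20 ng of RNA amplified by the Ovation system and tagmented. Per the labels and the methods, reads were aligned with TopHat to mm10 and quantified in GeneSpring 12.6.1. The versions of TopHat, the scaling between libraries and the use of strand are not given in the sources used here. The deposited values are RPKM normalized between libraries by the authors (NRPKM). The table holds no counts, so depth was estimated from 1624 single-exon receptor and keratin-associated genes, whose commonest value was taken as 1 read (82.4% to 92.7% of their values were whole multiples within 0.02). Reads are approximate, and limits from them cover counting error only.

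Values were tested as log2(NRPKM + 0.1) in limma 3.58.1 (R 4.3.3) with Benjamini-Hochberg adjusted *P* over all genes tested, on the 6 libraries of each pair of groups. Adding 0.1 understates the change of low genes. Tables and figures used Python 3.11.15, numpy 2.4.6, pandas 2.3.3, scipy 1.17.1 and matplotlib 3.10.9, with positions of transcripts from GENCODE M21. The fits were tested on simulated data. Genes were named if they were among the 6, if they came from the 4 lists and were called between WT compartments or between *aadd* and WT resting, or if they were 1 of the 3 genes most like a tested member, with a few checks. The members and lists were chosen with earlier results of these data known. The study sampled 3 independent sets, but separate embryos per library are not stated, so *P* measures the spread between these samples.

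Same-numbered replicates of WT proliferative and WT resting deviated together (*r* = 0.281, 0.179 and 0.198 across genes), and in each other pair of groups at least 1 of the 3 correlations was under 0.1 (-0.097 to 0.280 in all). These are the numbers of GEO's labels. The study also lists libraries in another order, so a shared origin of same-numbered samples is not known. The alternatives were a pseudocount of 1, no limit on low values, the limit taken over the compared groups only, quantile normalization, median-of-ratios rescaling, 1 fit of all 12 libraries, the replicate block, a variance trend and each library left out. A limit of 1 NRPKM and the fits of *Npr1* and *Npr3* under each alternative were added after seeing the data.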

Additional observations from a re-analysis of the deposited data

How the results depend on the processing

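With no limit on low values, and with a limit of 1 NRPKM (added after seeing the data), *Npr1* or *Npr3* joined the genes called. The number of the 6 called became 1 in WT hypertrophic versus WT proliferative, 3 in WT hypertrophic versus WT resting, 1 in *aadd* versus WT resting, and 2 each in *aadd* versus WT proliferative and *aadd* versus WT hypertrophic. With no limit, 9.42%, 12.5%, 5.82%, 11.2% and 15.3% of all genes were called in these comparisons, in the order given. The F test over 4 groups passed 4 with the limit of 1 NRPKM. With no limit it passed *Npr2*, *Npr3* and *Prkg2*, and not *Npr1*. *Npr3* reached 1 NRPKM only in the *aadd* libraries. *Npr1* reached it only in hypertrophic replicates 2 and 3 and *aadd* replicate 2. Both genes thus entered under the limit of 1 NRPKM only through libraries where they were high, so their results under it are a description. One fit of all 12 libraries called 2 in WT hypertrophic versus WT resting. With single libraries left out, the number called was 0 to 2 in WT hypertrophic versus WT proliferative (2 without hypertrophic replicate 1), 0 to 1 in WT hypertrophic versus WT resting (0 without hypertrophic replicate 2) and 1 to 2 in *aadd* versus WT hypertrophic (2 without hypertrophic replicate 2), and it kept its value in the other 3 comparisons. The genes called among all genes varied too. Over all alternatives they numbered 658 to 2120 in WT hypertrophic versus WT proliferative and 1196 to 2769 in WT hypertrophic versus WT resting. In *aadd* versus WT hypertrophic they numbered 1791 to 3738.

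In WT proliferative versus WT resting, where replicates of 1 number deviated together, the replicate block changed no call of the 6 genes or of the named ones (*Prkg2* log2 FC 2.13, adjusted *P* = 0.145). In the other comparisons, the block called 2 genes in WT hypertrophic versus WT resting and 2 in *aadd* versus WT hypertrophic, *Prkg2* joining at log2 FC 1.34 and -1.07.

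Directions that turned were of differences near 0. With single libraries left out, *Prkg1* ran from -0.16 to 0.094 in WT proliferative versus WT resting, from -0.31 to 0.089 in *aadd* versus WT resting and from -0.24 to 0.16 in *aadd* versus WT proliferative. In *aadd* versus WT resting *Npr2* ran from -0.10 to 0.067, *Prkg2* from -0.21 to 0.67, and the log2 ratio of *Prkg2* to *Prkg1* from -0.0087 to 0.62. Quantile normalization gave *Prkg1* 0.0097 in WT proliferative versus WT resting. With a pseudocount of 1, the calls of *Gucy1a2* in WT proliferative versus WT resting (-0.83), *Pde5a* in WT hypertrophic versus WT proliferative (0.96), and *Pde1a* (0.98) and *Corin* (1.72) in WT hypertrophic versus WT resting were lost. The causes were not tested. Depth limits *Nppc*, *Npr1* and *Npr3*, whose levels in WT resting rest on about 3.32, 5.34 and 14.2 reads per group.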

Other observations

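Among genes of the lists that were under the limit on low values, and picked out after their values were seen, *Nos1*, the neuronal nitric oxide synthase, measured 2.90 to 4.23 NRPKM in WT proliferative, above its 0.268 to 1.35 in WT resting, 0.133 to 1.32 in WT hypertrophic and 0.0180 to 0.386 in *aadd*. *Gucy1b3*, which encodes the partner subunit of *Gucy1a3*, measured 0.877 to 8.20 NRPKM in WT hypertrophic against 0.331 to 0.579 in WT resting, 0.343 to 0.900 in WT proliferative and 0.110 to 1.85 in *aadd*. *Nos3*, the endothelial synthase, measured 1.02 to 4.47 NRPKM in WT hypertrophic against at most 0.311 in WT resting, 0.501 in WT proliferative and 1.12 in *aadd*. No test is reported for these values.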
